A study of Mus musculus with 20 samples.

Results

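The genes described here are 8 interferon-responsive members and partners of the PARP family: Parp3, Parp9, Parp10, Parp11, Parp12, Parp14, Dtx3l and Zc3hav1. They were chosen by name, with earlier results of these data known, as the rows of the hippocampal count table whose Ensembl identifiers carry these symbols. All 8 were found among 39056 genes in the table. Shares of all genes set beside counts of the 8 are therefore a description and not a test. All 8 also passed the filter on low counts, which kept 16107 genes. No interferon was given to these mice, so "interferon-responsive" is a name from background knowledge, which fits Parp3 least, and the response itself was not measured.

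RNA came from the left hippocampus of 20 female C57BL/6 mice aged 12 to 13 months, 1 library per mouse and 5 mice per group. The mice were WT or KO for miR-34a, each with the Tg-SwDI transgene or without it (Non-Tg), which gives 4 groups. The KO is whole-body and constitutive, so no cell type was targeted. Tg-SwDI mice carry human APP with the Swedish, Dutch and Iowa mutations under the neuronal Thy1 promoter. The mice had completed behavioral tests and were perfused with PBS before dissection, in all 4 groups. The question for these genes was whether the amyloid transgene, the loss of miR-34a or the combination went with a different level of them.

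PARP enzymes move ADP-ribose from NAD+ onto proteins or nucleic acids. Most interferon-induced members attach a single ADP-ribose unit, and some carry macrodomains that bind this mark or zinc fingers that bind viral RNA. Interferon acts through Ifnar1 and Ifnar2, Jak1 and Tyk2 to activate a transcription complex that includes Stat2 and Irf9 and binds interferon-stimulated response elements (ISREs) near its target genes. In brain, microglia are among the cells that express these genes.

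The genes lie on 4 chromosomes (mm10, GENCODE M21). Parp14 (chromosome 16, 35832874 to 35871544, minus strand), Dtx3l (chromosome 16, 35926511 to 35939151, minus strand) and Parp9 (chromosome 16, 35938470 to 35972605, plus strand) are neighbors. Parp9 and Dtx3l start 681 bases apart on opposite strands and share 458 exonic bases, which are 9.4% of the Parp9 exons and 8.0% of the Dtx3l exons. The libraries were stranded, but the strand setting of the counting is not given in the sources used here, so reads from the shared bases cannot be assigned to either gene with certainty. Parp12 (39086410 to 39118349, minus strand), Zc3hav1 (38305286 to 38354603, minus strand) and Parp11 (127446840 to 127494261, plus strand) lie on chromosome 6. Parp3 lies on chromosome 9 (106470322 to 106476949, minus strand). Parp10 lies on chromosome 15 (76231174 to 76243441, minus strand) and shares 205 exonic bases with Plec on the same strand, 4.8% of its exons.

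The sequences below come from searches of these genes for the ISRE core, through which interferon acts, and for possible sites of the deleted miRNA. RefSeq (GRCm38.p6) promoter windows, from 250 bases before to 50 after a gene start, were given for Parp3, Parp11, Parp12, Dtx3l and Zc3hav1, and not for Parp9, Parp10 and Parp14. The ISRE core searched was 2 copies of GAAA set 2 bases apart, on both strands, which 3.99% of 27025 genes hold. Of the 5 genes with a window, only Parp11, the member that did not differ between groups, held it, 44 bases before the start and on the opposite strand. The gamma-activated site TTCNNNGAA, which reads the same on both strands and which 9.55% of genes hold, was also found only in Parp11, partly overlapping the ISRE core. The search took exact letters in these windows alone, so a gene without a match is not shown to lack a response element. Capitals mark the motif.
Parp11 ISRE core (chr6:127446786-127446815, plus strand): ttccttttagTTTCGATTTCttggaacccg
Parp11 gamma-activated site (chr6:127446793-127446822, plus strand): tagtttcgatTTCTTGGAAcccgtggcatg

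The seed of miR-34a-5p (chr4:150068473-150068494, plus strand) is shown in capitals below. Matches to it (pairing with bases 2 to 8, with bases 2 to 7 followed by an A, or both) were searched in the 3'UTRs of coding transcripts (GENCODE M21). Of the 8 genes, 2 held a match, Parp11 and Parp14, with 1 site each, while 20.7% of 21020 genes held at least 1. Both sites pair with bases 2 to 7 of the miRNA and are followed by an A, in capitals. A match is a description of the sequence and not a measured site.
miR-34a-5p: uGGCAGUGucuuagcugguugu
Parp11 3'UTR (site chr6:127493799-127493805, plus strand): tgttgggacagACTGCCAacccccttcata
Parp14 3'UTR (site chr16:35834100-35834106, minus strand): ccctggccccaACTGCCAgtgggcccttct

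Each mouse had 19549622 to 21066868 counts on genes. Thy1, a check of the transgene label, was at 684.0 to 768.6 CPM, the usual unit of counts scaled to library size (here after TMM), in Non-Tg mice and 1903.2 to 3315.9 CPM in Tg-SwDI mice. Among Tg-SwDI mice, Thy1 was also higher in the KO group than in the WT group, by a log2 of 0.37 (SE 0.06, FDR = 0.00416). The miR-34a transcript was not analysed here. KO Tg-SwDI replicate 8 stood apart from the other mice. Mitochondrial genes took 14.56% of its counts and 6.936% to 8.764% in the other 19 mice, and it was the lowest of its group for 6 of the 8 genes. Its 12 reference interferon-stimulated genes summed to 52.4 CPM, against 102.9 to 200.3 CPM in the other 4 KO Tg-SwDI mice and 52.8 to 69.0 CPM in WT Tg-SwDI mice. Results are therefore given with and without it. Its low values in the genes tested were part of the reason, so the results without it are not independent of that choice. Values of single mice below are in CPM and in the order of the replicate numbers. These are 2, 3, 4, 6 and 7 in WT Non-Tg, 1, 2, 4, 7 and 8 in KO Non-Tg, 3, 4, 5, 6 and 7 in WT Tg-SwDI, and 1, 2, 3, 5 and 8 in KO Tg-SwDI mice.

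Per kilobase of exon, the mean level over the 20 mice was lowest for Parp10 (0.793 CPM per kb) and Parp14 (0.797 CPM per kb). Parp9, Parp3 and Dtx3l lay between 1.44 and 1.49 CPM per kb. Zc3hav1 (2.53 CPM per kb), Parp11 (2.61 CPM per kb) and Parp12 (3.87 CPM per kb) were the highest. Counts behind these levels ran from 49 to 117 per mouse for Parp10, the least covered gene, and from 205 to 543 for Zc3hav1. In 6 of the 8 genes the group means had the order KO Non-Tg, WT Non-Tg, WT Tg-SwDI and KO Tg-SwDI from low to high. The exceptions were Parp10, where the Non-Tg groups changed places, and Parp11. Of neighboring groups in this order, only 3 pairs did not overlap in single mice: WT and KO Tg-SwDI for Parp3 and for Zc3hav1, and WT Non-Tg and WT Tg-SwDI for Parp9.

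**Figure D1:**
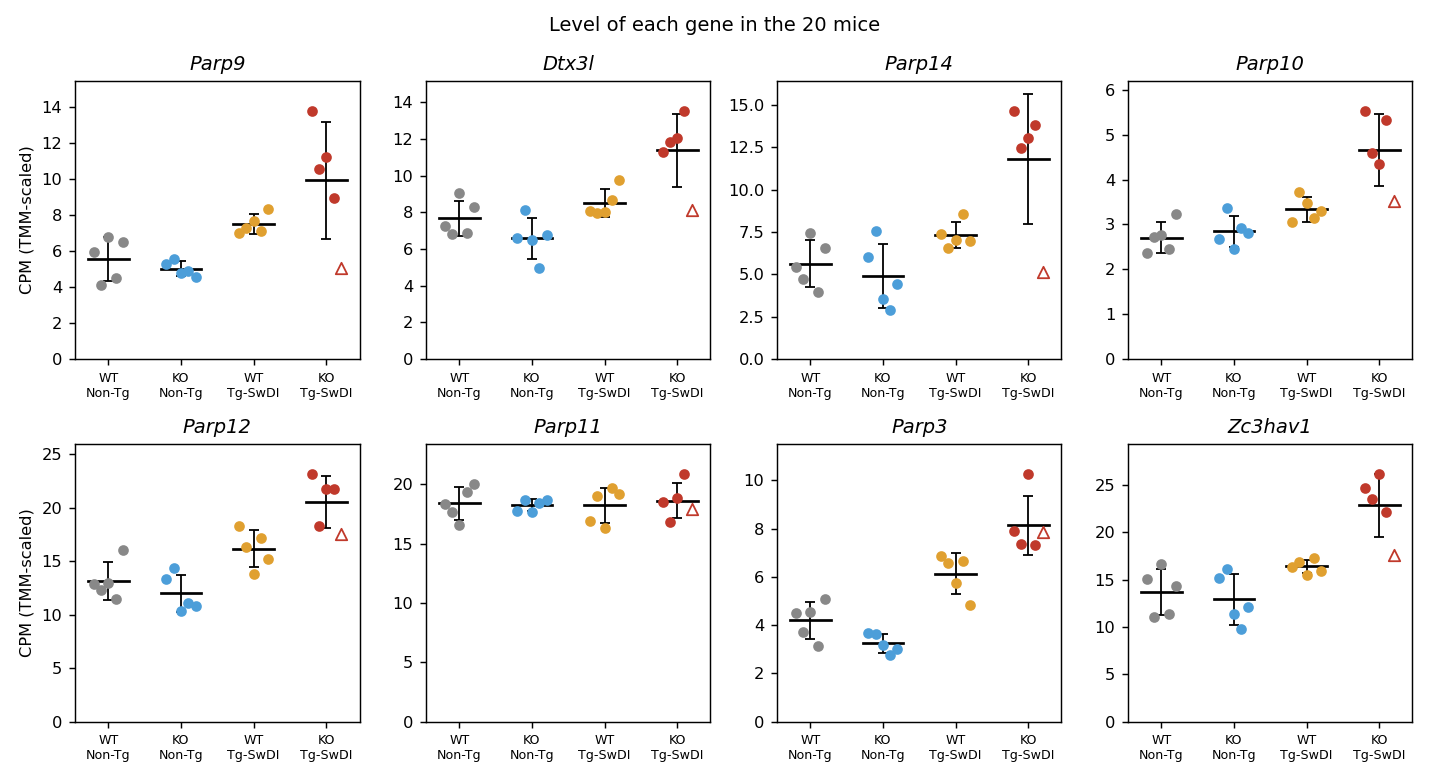
TMM-scaled CPM (y axis, from 0) of each gene in each of the 20 mice by group (x axis), with the mean as a horizontal line and the SD as bars (n = 5). The open triangle is KO Tg-SwDI replicate 8, which was the lowest of its group in 6 of 8 panels, while Parp11 stayed between 16.3 and 20.9 CPM in all mice.

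Parp9 is a macrodomain protein with little or no catalytic activity of its own, and Dtx3l is the E3 ubiquitin ligase that it binds. Parp9 was at 5.95, 4.11, 6.80, 4.50 and 6.49 CPM in WT Non-Tg and at 5.31, 5.59, 4.77, 4.89 and 4.54 CPM in KO Non-Tg mice. It was at 7.04, 7.28, 7.70, 7.14 and 8.37 CPM in WT Tg-SwDI and at 13.8, 10.6, 11.3, 8.97 and 5.06 CPM in KO Tg-SwDI mice. All WT Tg-SwDI mice lay above all WT Non-Tg mice, and 4 KO Tg-SwDI mice lay above all other mice while replicate 8 fell within the Non-Tg range. In KO mice Parp9 rose with the transgene 1.98-fold (log2 0.99, SE 0.18, FDR = 0.000398). In WT mice its log2 fold change was 0.43 (SE 0.18, FDR = 0.249), which did not pass despite the groups not overlapping.

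Dtx3l was at 7.23, 6.84, 9.06, 6.89 and 8.30 CPM in WT Non-Tg and at 6.597, 8.10, 6.46, 4.99 and 6.77 CPM in KO Non-Tg mice. It was at 8.07, 7.94, 7.996, 8.69 and 9.75 CPM in WT Tg-SwDI and at 11.3, 11.8, 12.02, 13.5 and 8.14 CPM in KO Tg-SwDI mice. The KO Tg-SwDI group lay above the KO Non-Tg group without overlap, and overlapped the WT Tg-SwDI group through replicate 8 alone. Dtx3l rose 1.73-fold with the transgene in KO mice (log2 0.79, SE 0.12, FDR = 3.77e-05). The matching log2 fold change in WT mice was 0.15 (SE 0.12, FDR = 0.651).

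Parp14 carries several macrodomains and a mono-ADP-ribosyltransferase domain, and is known as a cofactor of Stat6. It was at 5.43, 4.76, 7.46, 3.95 and 6.53 CPM in WT Non-Tg and at 6.02, 7.53, 3.52, 2.92 and 4.45 CPM in KO Non-Tg mice. It was at 7.41, 6.57, 7.01, 8.59 and 6.98 CPM in WT Tg-SwDI and at 14.7, 12.5, 13.1, 13.8 and 5.12 CPM in KO Tg-SwDI mice. Without replicate 8, the KO Tg-SwDI mice (13.5 ± 0.95 CPM, SD, n = 4) lay above every other mouse. Replicate 8 itself was below all 5 WT Tg-SwDI mice. Parp14 rose 2.42-fold with the transgene in KO mice (log2 1.28, SE 0.26, FDR = 0.00195) and was at a log2 of 0.38 (SE 0.27, FDR = 0.567) in WT mice.

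Parp10 and Parp12 are mono-ADP-ribosyltransferases, and Parp12 carries zinc fingers of the kind that bind RNA. Parp10 was at 2.36, 2.73, 2.77, 2.45 and 3.24 CPM in WT Non-Tg and at 2.68, 3.36, 2.46, 2.92 and 2.80 CPM in KO Non-Tg mice. It was at 3.05, 3.73, 3.48, 3.14 and 3.30 CPM in WT Tg-SwDI and at 5.53, 4.59, 4.35, 5.33 and 3.52 CPM in KO Tg-SwDI mice. All KO Tg-SwDI mice lay above all Non-Tg mice, and replicate 8 alone fell into the WT Tg-SwDI range. The transgene went with a 1.64-fold rise of Parp10 in KO mice (log2 0.71, SE 0.13, FDR = 0.000237), and with a log2 of 0.30 (SE 0.13, FDR = 0.266) in WT mice.

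Parp12 was at 12.9, 12.3, 13, 11.5 and 16.1 CPM in WT Non-Tg and at 13.3, 14.3, 10.3, 11.1 and 10.8 CPM in KO Non-Tg mice. It was at 18.3, 16.4, 13.8, 17.2 and 15.2 CPM in WT Tg-SwDI and at 23.2, 18.3, 21.8, 21.8 and 17.6 CPM in KO Tg-SwDI mice. Every KO Tg-SwDI mouse was above every Non-Tg mouse, and the 3 highest, at 21.8 CPM or more, were well above every WT Tg-SwDI mouse. Parp12 rose 1.71-fold with the transgene in KO mice (log2 0.78, SE 0.10, FDR = 3.33e-06). In WT mice the log2 fold change was 0.30 (SE 0.10, FDR = 0.126).

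Zc3hav1, also called ZAP or PARP13, has no catalytic activity and binds CpG-rich viral RNA. It was at 15.1, 11.1, 16.7, 11.4 and 14.3 CPM in WT Non-Tg and at 15.2, 16.2, 11.4, 9.83 and 12.1 CPM in KO Non-Tg mice. It was at 16.4, 16.9, 15.5, 17.3 and 15.965 CPM in WT Tg-SwDI and at 24.6, 23.6, 26.2, 22.2 and 17.6 CPM in KO Tg-SwDI mice. The KO Tg-SwDI group lay above each of the other groups without overlap, replicate 8 only just. Zc3hav1 rose 1.77-fold with the transgene in KO mice (log2 0.82, SE 0.13, FDR = 5.40e-05) and was at a log2 of 0.26 (SE 0.13, FDR = 0.358) in WT mice.

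Parp3 is a mono-ADP-ribosyltransferase of the DNA break response and is not usually counted among interferon-stimulated genes. It was at 4.49, 3.72, 4.55, 3.15 and 5.10 CPM in WT Non-Tg and at 3.68, 3.65, 3.18, 2.78 and 2.997 CPM in KO Non-Tg mice. It was at 6.85, 6.57, 5.74, 6.66 and 4.83 CPM in WT Tg-SwDI and at 7.90, 7.35, 10.3, 7.33 and 7.87 CPM in KO Tg-SwDI mice. The KO Tg-SwDI group lay above all other groups without overlap, and replicate 8 was the middle mouse of its group rather than the lowest. Parp3 rose 2.50-fold with the transgene in KO mice (log2 1.32, SE 0.13, FDR = 3.35e-08). It also rose in WT mice, 1.46-fold (log2 0.54, SE 0.13, FDR = 0.0127), with groups that overlapped through WT Non-Tg replicate 7 and WT Tg-SwDI replicate 7.

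Parp11, a mono-ADP-ribosyltransferase of the nuclear envelope, did not follow the others. It was at 18.3, 17.6, 16.6, 19.3 and 20.03 CPM in WT Non-Tg and at 17.8, 18.7, 17.6, 18.5 and 18.7 CPM in KO Non-Tg mice. It was at 16.9, 19.0, 16.3, 19.6 and 19.2 CPM in WT Tg-SwDI and at 18.5, 16.8, 18.8, 20.9 and 17.9 CPM in KO Tg-SwDI mice. All 4 groups overlapped. The 95% interval of the log2 fold change with the transgene was -0.11 to 0.17 in KO mice and -0.15 to 0.13 in WT mice, the narrowest of the 8 genes.

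Counted together, 7 of the 8 genes rose with the transgene among miR-34a KO mice, where 12.5% of all genes tested were called higher. The median log2 fold change of the 8 genes was 0.81, against -0.0048 over all genes tested. The groups did not overlap for 5 of the 8, and for 8.46% of all genes in this direction. Among miR-34a WT mice, 1 of the 8 genes, Parp3, was called higher, where 3.94% of all genes were. The median was 0.30 for the 8 genes and 0 for all. Groups did not overlap for 1 of the 8, Parp9, and for 5.1% of all genes. The 7 calls in KO mice stayed without KO Tg-SwDI replicate 8 and without any other single mouse. Parp3 in WT mice lost its call without WT Non-Tg replicate 6 (FDR = 0.0579), and without WT Non-Tg replicate 7 or KO Tg-SwDI replicate 8 the count was 2.

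**Figure D2:**
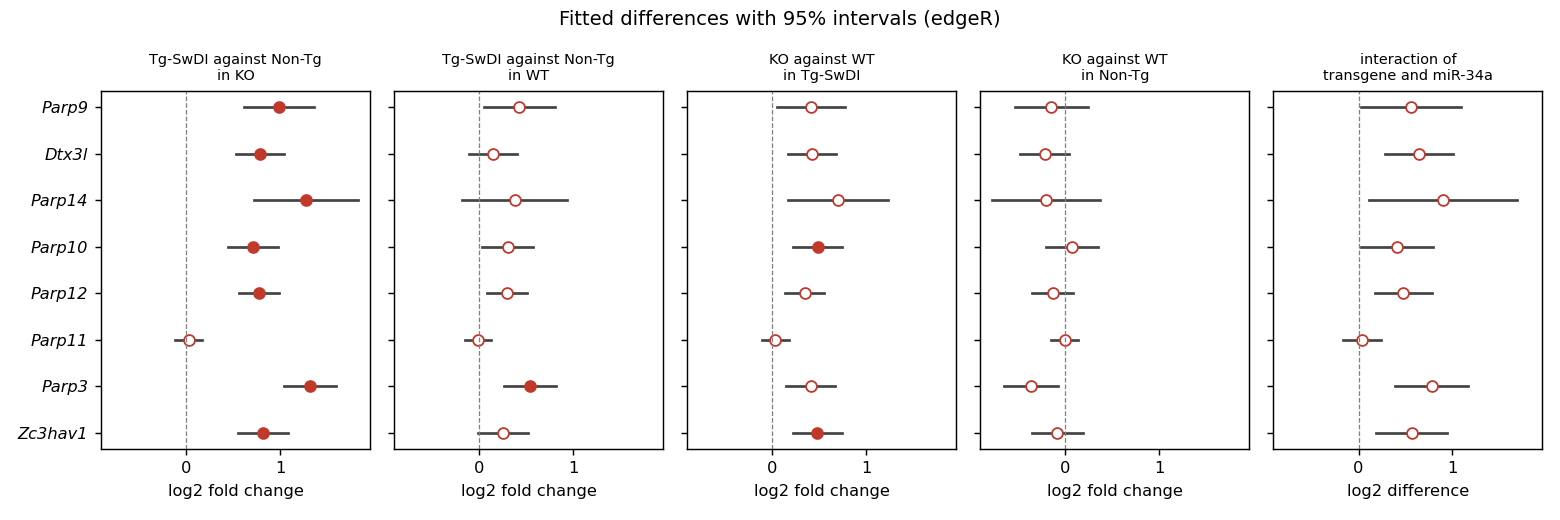
Fitted log2 fold changes of the 8 genes (x axis) with 95% intervals in the 4 pairwise comparisons, and the interaction as a log2 difference. Filled points passed an FDR of 0.05, which 7 genes did for Tg-SwDI against Non-Tg in KO mice, 1 in WT mice, 2 for KO against WT in Tg-SwDI mice and 0 in the remaining 2 panels.

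Markers of several cell types moved in the transgene comparisons. The 10 microglia markers summed to 371 to 468 CPM in WT Non-Tg, 373.6 to 399 CPM in KO Non-Tg, 733.3 to 878.3 CPM in WT Tg-SwDI and 870.7 to 1195 CPM in KO Tg-SwDI mice. All 10 markers were called higher with the transgene in KO and in WT mice. With the mean log2 CPM of these markers as a covariate, 0 of the 8 genes were called in KO mice, and the log2 fold change of Parp9 was -1.41 with an SE of 0.58 rather than 0.18. Parp14 was then at -0.67 and Zc3hav1 at -0.38. Above 0 were Parp3 (0.82), Parp12 (0.53), Dtx3l (0.17), Parp11 (0.12) and Parp10 (0.06). Since no Tg-SwDI mouse overlapped a Non-Tg mouse in the marker sum, this fit cannot tell the transgene apart from microglial content. In bulk RNA, more cells of a type and more RNA per cell cannot be told apart. Choroid plexus markers summed to 68.6 to 356.4 CPM in KO Non-Tg and 135.6 to 3967 CPM in KO Tg-SwDI mice, and with these markers as a covariate the same 7 genes were called. Of 6 oligodendrocyte markers 4 were called higher in KO mice (median log2 0.245, summed CPM 4723 to 5646 in KO Non-Tg and 5753 to 7617 in KO Tg-SwDI mice) and 0 in WT mice. Of 6 astrocyte markers 2 were called higher in KO mice and 3 in WT mice, with medians of 0.19 and 0.21. Of 6 neuron markers 2 were called lower in KO mice (median -0.09) and 0 in WT mice. The part of these cell types in the PARP values was not tested. The 6 lymphocyte markers summed to at most 1.32 CPM in any mouse.

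Within Tg-SwDI mice, 8 of 8 genes were higher on average in miR-34a KO than in WT mice, and 2 were called, where 1.48% of all genes tested were called higher. These were Zc3hav1 (22.8 ± 3.28 against 16.4 ± 0.72 CPM, SD, n = 5, log2 0.48, SE 0.13, FDR = 0.0496) and Parp10 (4.66 ± 0.81 against 3.34 ± 0.28 CPM, SD, n = 5, log2 0.48, SE 0.13, FDR = 0.0470). Both calls lay close to the threshold. The other log2 fold changes were 0.70 for Parp14 (SE 0.25, FDR = 0.149), 0.42 for Dtx3l (SE 0.12, FDR = 0.0659), 0.41 for Parp3 (SE 0.13, FDR = 0.0838), 0.41 for Parp9 (SE 0.18, FDR = 0.207), 0.34 for Parp12 (SE 0.10, FDR = 0.0728) and 0.03 for Parp11 (SE 0.07, FDR = 0.8503). The median was 0.42, against 0.0026 over all genes, and 7 of the 8 had an unadjusted p under 0.05, as did 18.9% of all genes. The KO and WT mice did not overlap for Parp3 and Zc3hav1, 2 of 8 genes, where 2.04% of all genes were higher in KO mice without overlap.

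The count in this comparison depended on single mice. Leaving out the lowest mouse of the higher group raises a difference by construction. KO Tg-SwDI replicate 8 was that mouse for 6 of the 8 genes. Without KO Tg-SwDI replicate 8, 6 of the 8 genes were called higher in KO Tg-SwDI mice. The log2 fold changes were then 0.89 for Parp14 (SE 0.20, FDR = 0.0244), 0.57 for Parp9 (SE 0.13, FDR = 0.0170), 0.57 for Parp10 (SE 0.12, FDR = 0.0151), 0.56 for Zc3hav1 (SE 0.12, FDR = 0.0175), 0.52 for Dtx3l (SE 0.11, FDR = 0.0129) and 0.40 for Parp12 (SE 0.10, FDR = 0.0433). Parp3 stayed at 0.42 (SE 0.13, FDR = 0.0989) and Parp11 at 0.05 (SE 0.07, FDR = 0.812). With each of the 5 WT Tg-SwDI mice left out in turn, 0 genes were called, and the same held without KO Tg-SwDI replicates 1, 3 or 5 or KO Non-Tg replicates 4 or 8. Parp10 kept its call in 5 and Zc3hav1 in 7 of the 20 fits with 1 mouse left out, with an FDR of up to 0.108 and 0.115. With library size alone in place of TMM, 0 of the 8 genes were called. The part of the high mitochondrial share of replicate 8 in its low values was not tested.

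**Figure D3:**
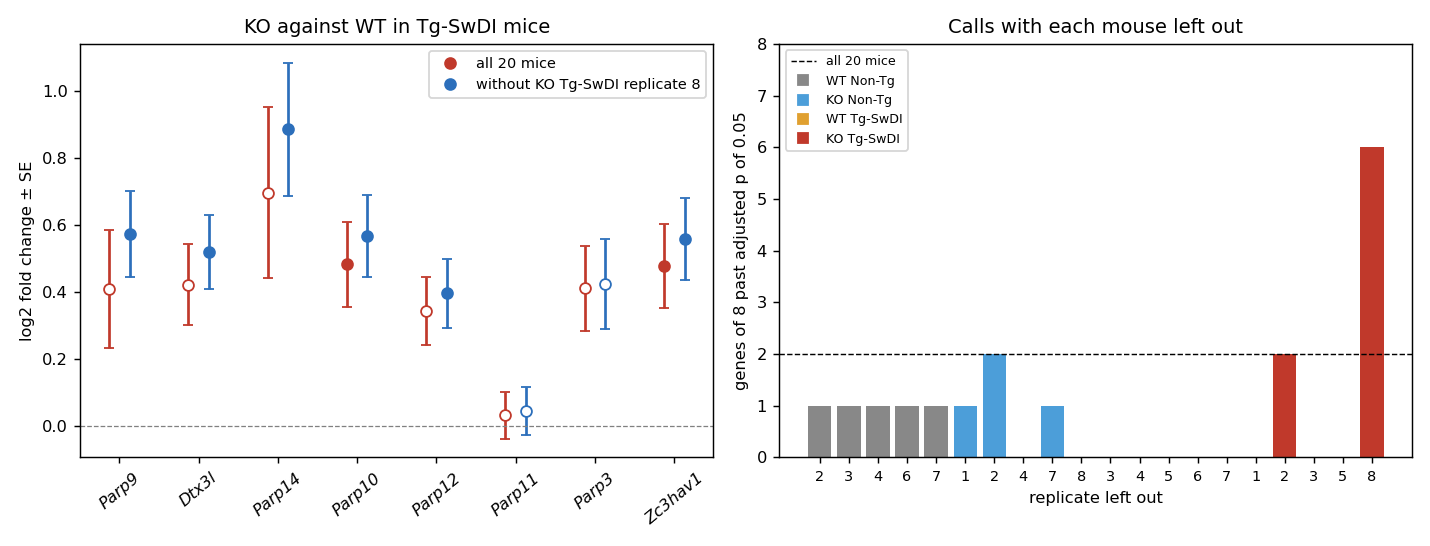
Left, log2 fold change with SE bars of KO against WT Tg-SwDI mice for each gene with all 20 mice (red) and without KO Tg-SwDI replicate 8 (blue), filled where the FDR was under 0.05. Right, number of the 8 genes called (y axis) when each mouse (x axis, colored by group) was left out, which was 6 without KO Tg-SwDI replicate 8 and 0 to 2 otherwise.

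In Non-Tg mice, 0 of the 8 genes differed between miR-34a KO and WT mice by edgeR's quasi-likelihood test, where 0% of all genes were called, and DESeq2 and edgeR's exactTest also called 0 of the 8. Of the 8 genes, 7 were lower on average in KO mice, and their median was -0.14 on the log2 scale against -0.0021 over all genes. Parp3 was the only one with an unadjusted p under 0.05, which 8.08% of all genes had. It was at 3.26 ± 0.40 CPM in KO and 4.201 ± 0.77 CPM in WT mice (SD, n = 5, log2 -0.37, SE 0.14, FDR = 0.540). The intervals leave room for moderate differences, from -0.78 to 0.37 for Parp14, the widest, and from -0.15 to 0.13 for Parp11, the narrowest. Choroid plexus markers summed to 66.5 to 4417 CPM in WT Non-Tg and 68.6 to 356.4 CPM in KO Non-Tg mice. All 10 were lower in KO mice at an unadjusted p under 0.05 (median log2 -2.74), and 0 were called. The part of choroid plexus content in the PARP values was not tested beyond a fit with these markers as a covariate.

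The interaction, the transgene's log2 fold change in KO mice minus that in WT mice, was above 0 for 8 of 8 genes with a median of 0.56, against 0.0091 over all genes. By edgeR's quasi-likelihood test 0 of the 8 passed, where 0.608% of all genes did, although 7 had an unadjusted p under 0.05, as did 17.5% of all genes. It was largest for Parp14 (0.90, SE 0.37, FDR = 0.227), Parp3 (0.78, SE 0.19, FDR = 0.0521) and Dtx3l (0.64, SE 0.18, FDR = 0.0767). DESeq2 called 3 of the 8 (Parp3, Parp12 and Dtx3l). Without KO Tg-SwDI replicate 8, edgeR called Parp3 (0.80, SE 0.20, FDR = 0.0420), Parp9 (0.73, SE 0.18, FDR = 0.0465) and Dtx3l (0.74, SE 0.16, FDR = 0.0176). The transgene comparison in KO mice and the KO comparison in Tg-SwDI mice share the 5 KO Tg-SwDI mice, and the interaction uses all 4 groups, so these results are not independent of each other. Choroid plexus markers also had an interaction above 0, 10 of 10 with a median of 2.64, and 7 had an unadjusted p under 0.05. With these markers as a covariate, 0 of the 8 genes passed the interaction test, and 18 of all genes rather than 98. Their part in the PARP values was not tested further. Thy1, the check of the transgene label, also had an interaction above 0 (0.38, FDR = 0.0504), and its part was not tested.

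Other PARP family genes were counted in the same way. Of 9 others (Parp1, Parp2, Parp4, Parp6, Parp8, Parp16, Tiparp, Tnks and Tnks2), 1 was called higher and 1 lower with the transgene in KO mice, and 0 in WT mice, where 2 had an unadjusted p under 0.05. Over all genes, 12.5% were called higher and 8.31% lower with the transgene in KO mice, so these counts lie near the background. Parp4, the vault-associated member, rose by a log2 of 0.49 (SE 0.12, FDR = 0.00673). Tnks, a telomere and Wnt-pathway PARP, fell by 0.14 on the log2 scale (SE 0.04, FDR = 0.0244). Between KO and WT Tg-SwDI mice 0 of the 9 were called, with log2 fold changes from -0.17 to 0.22 and 2 at an unadjusted p under 0.05. Parp1, the main nuclear poly-ADP-ribose polymerase, was at 96.0 ± 11.2 CPM in KO and 95.3 ± 4.36 CPM in WT Tg-SwDI mice (SD, n = 5).

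**Figure D4:**
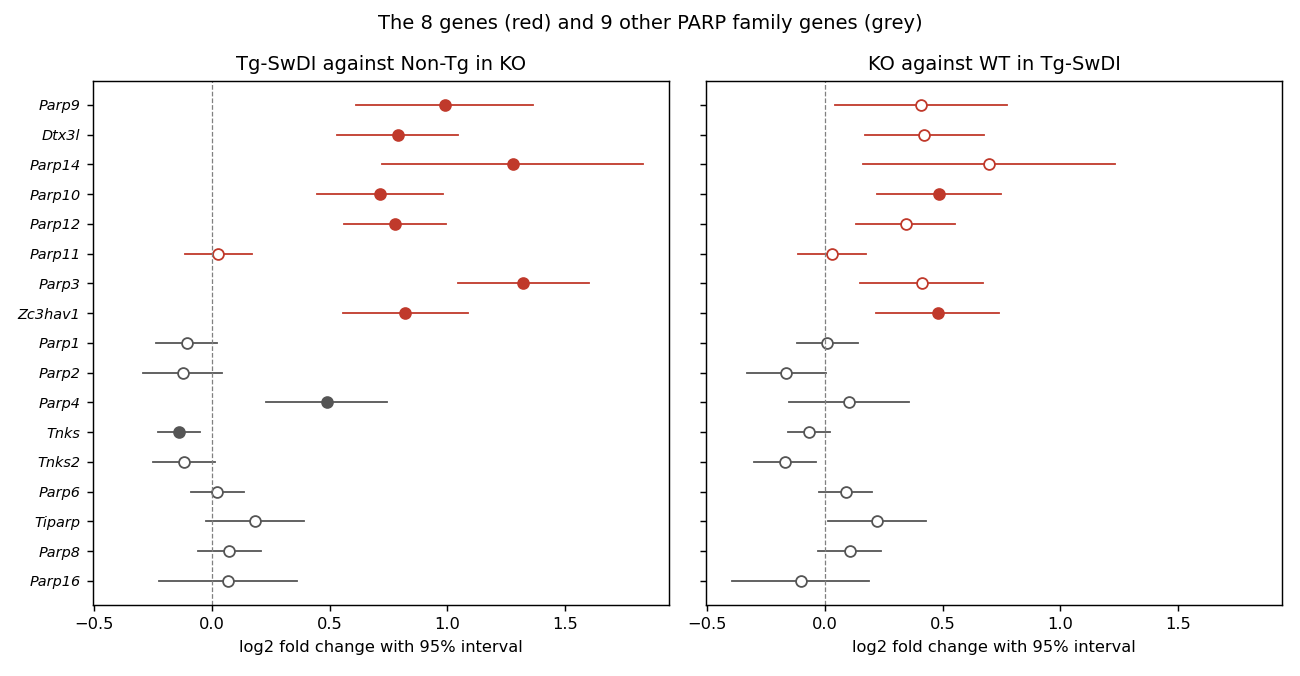
Log2 fold changes with 95% intervals (x axis) of the 8 genes in red and 9 other PARP family genes in grey, for Tg-SwDI against Non-Tg in KO mice (left) and KO against WT in Tg-SwDI mice (right). Filled points passed an FDR of 0.05, 7 of 8 red and 2 of 9 grey on the left, and 2 of 8 red and 0 of 9 grey on the right.

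Enzymes that remove ADP-ribose were counted as well. Of 6 such genes, 0 were called higher and 2 lower with the transgene in KO mice, where 8.31% of all genes were called lower. These were Macrod2 (log2 -0.24, SE 0.05, FDR = 0.00158) and Parg, the poly-ADP-ribose glycohydrolase (log2 -0.15, SE 0.05, FDR = 0.0404). Of 4 other Deltex genes, relatives of Dtx3l, only Dtx2 was called (log2 0.28, SE 0.10, FDR = 0.0429). Of 4 cofactors and relatives of Zc3hav1, only Trim25, the ubiquitin ligase that ZAP needs for its antiviral action, was called (log2 0.86, SE 0.15, FDR = 0.000272). In the other comparisons 0 of these 14 genes were called by edgeR's quasi-likelihood test, and 4 had an unadjusted p under 0.05 between KO and WT Tg-SwDI mice.

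Genes of the pathway upstream were read beside them. With the transgene in KO mice, Irf9 rose by a log2 of 1.13 (SE 0.17, FDR = 4.07e-05), Ifnar2 by 0.71 (SE 0.09, FDR = 2.08e-06) and Stat2 by 0.49 (SE 0.09, FDR = 0.000413), while Ifnar1 was at -0.06 (FDR = 0.438) and Jak1 at -0.09 (FDR = 0.133). Between KO and WT Tg-SwDI mice the same 3 genes were called, Irf9 (0.73, SE 0.16, FDR = 0.0267), Stat2 (0.41, SE 0.09, FDR = 0.0232) and Ifnar2 (0.40, SE 0.09, FDR = 0.0250). Ifnar2, a subunit of the type I interferon receptor, also passed the interaction test (0.57, SE 0.13, FDR = 0.0402). In WT mice its log2 fold change with the transgene was 0.14 (SE 0.09, FDR = 0.516).

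A list of 12 widely used interferon-stimulated genes was read beside the 8 PARP genes. With the transgene in KO mice 11 of 12 were called higher, at a median of 1.78 on the log2 scale against 0.81 for the PARP genes. The 3 largest were Mx1 (2.91, SE 0.41), Bst2 (2.43, SE 0.38) and Oasl2 (2.34, SE 0.38), of which Mx1 and Oasl2 have close relatives that may share reads. Mx1 was low throughout, with means of 0.249 CPM in KO Non-Tg and 1.90 CPM in KO Tg-SwDI mice. Between KO and WT Tg-SwDI mice 5 of 12 were called higher, with a median of 1.30 against 0.42. In WT mice 0 of 12 were called with the transgene by edgeR's quasi-likelihood test, with 0 at an unadjusted p under 0.05, and their median was 0.27 against 0.30 for the PARP genes. Of the PARP genes, 4 had an unadjusted p under 0.05 there, as did 15.2% of all genes. The difference between the lists was not tested. Between KO and WT Tg-SwDI mice 2 of 10 microglia markers were called higher, while 10 of 10 were above 0 and 9 had an unadjusted p under 0.05, with a median of 0.29. The part of microglial content in the PARP values was not tested beyond the fit with these markers as a covariate, in which 0 of the 8 were called in this comparison. In that fit the log2 fold changes were 0.33 for Parp10, 0.30 for Parp3, 0.29 for Parp12 and 0.28 for Dtx3l. They were 0.23 for Parp14, 0.20 for Zc3hav1 and -0.17 for Parp9.

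Within groups, many of the 8 genes varied together from mouse to mouse. Over the 28 pairs, with group means removed from log2 CPM in the 20 mice, Pearson's r ran from -0.04 to 0.89, and 13 pairs passed a Benjamini-Hochberg adjusted two-sided permutation p of 0.05 (100000 permutations within groups). By Spearman's rho 10 pairs passed. The closest pair was Parp14 and Zc3hav1 (r = 0.89, adjusted permutation p = 0.00196; rho = 0.88, adjusted permutation p = 0.00392), and r was 0.86 without the 2 mice farthest from the median of Parp14. Next were Parp14 and Dtx3l (r = 0.86, adjusted permutation p = 0.00322; rho = 0.78, adjusted permutation p = 0.00672; r = 0.75 without the 2 farthest mice). Parp9 and Dtx3l, the divergent pair with shared exonic bases, were at r = 0.65 (adjusted permutation p = 0.0396) and rho = 0.57 (adjusted permutation p = 0.0600), and at r = 0.55 without the 2 farthest mice.

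Parp11 stood outside this pattern, with 0 of its 7 pairs past the threshold. Parp3 passed with Parp12 (r = 0.67, adjusted permutation p = 0.0111) and Zc3hav1 (r = 0.68, adjusted permutation p = 0.0111) and, by Pearson's r, not with Parp9, Parp10, Parp14 or Dtx3l. Without KO Tg-SwDI replicate 8, 9 pairs passed, 8 of them among the 13. Parp14 and Zc3hav1 were then at r = 0.89 (adjusted permutation p = 0.00882), while Parp9 and Dtx3l were at r = 0.37 (adjusted permutation p = 0.252). The mice share the scaling of their library across genes, and r without the 2 farthest mice ran from 0.37 to 0.86 over the 13 pairs. Choroid plexus markers also varied widely within groups, from 66.5 to 4417 CPM in WT Non-Tg and from 135.6 to 3967 CPM in KO Tg-SwDI mice. Removal of group means does not remove such differences between mice, and their part in these correlations was not tested.

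**Figure D5:**
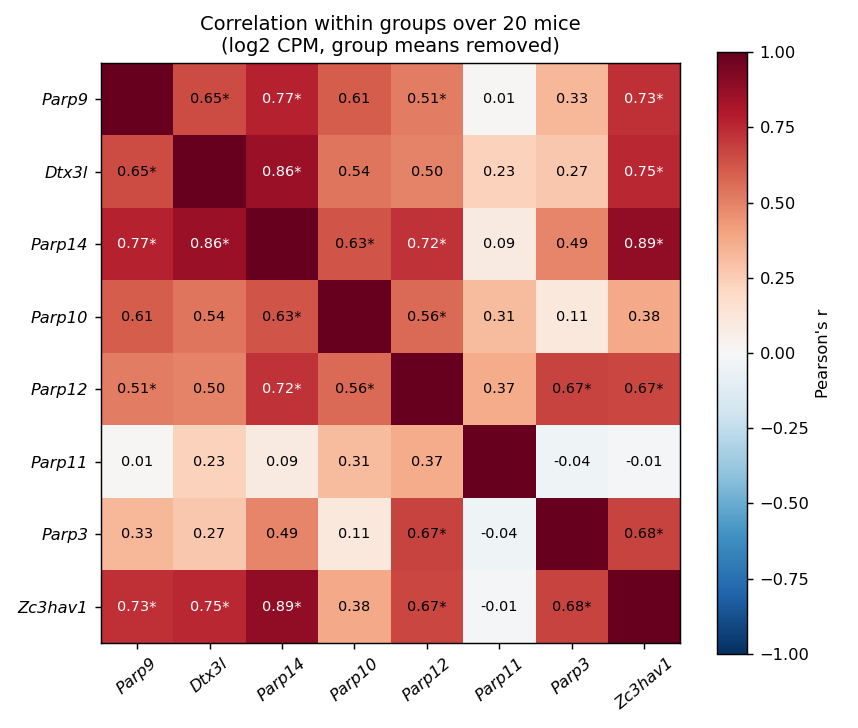
Pearson's r (color, from -1 to 1) between the genes over 20 mice after removal of group means from log2 CPM, with a star where the adjusted permutation p was under 0.05. Stars mark 13 of 28 pairs, and the row of Parp11 has none.

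The genes whose pattern over the 20 mice was most like each member were found by the root mean square difference of centered log2 CPM among the 16106 other genes tested, as a description only. For Parp14 they were Rnf213 (0.21), Ifih1 (0.23) and Irgm1 (0.23), and for Parp9 Irgm1 (0.16), Trim12a (0.17) and Tlr4 (0.19). For Parp10 they were Tlr3 (0.16), Sp100 (0.17) and Parp12 (0.17). For Parp12 they were Tapbp (0.14), Ehd4 (0.14) and Arap1 (0.15). Dtx3l and Zc3hav1 were each among the 3 genes nearest to the other (0.15), beside Tap2 (0.14) and Gm49342 (0.16) for Dtx3l and Tapbp (0.13) and Trim25 (0.16) for Zc3hav1. The nearest to Parp3 were Tmem176a (0.16), Clic1 (0.16) and Tnfrsf1a (0.16). Of the 7 members so described, 3 had another of the 8 PARP genes among their 3 nearest. By this difference, the rank of another member ran from 2 (Zc3hav1 from Dtx3l and the reverse) to 9427 (Parp14 from Parp10).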

How the data were processed

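Left hippocampal RNA of 20 mice was sequenced as stranded mRNA libraries on DNBSEQ. The authors aligned reads to mm10 with STAR and deposited raw read counts per ENSEMBL gene from featureCounts, without normalization; versions, strand setting and handling of multi-mapping reads are not given in the sources used here. Groups came from the labels. Gene symbols came from GENCODE M21 (38872 of 39056 identifiers matched).

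Counts were scaled by TMM and filtered by filterByExpr with a minimum count of 10 and a total of 15. The 4 group means were fitted together by quasi-likelihood (16 residual degrees of freedom) in edgeR 4.0.16 (R 4.3.3, limma 3.58.1), checked on simulated data. FDR is the Benjamini-Hochberg adjusted p over 16107 genes. With 19549622 to 21066868 counts per mouse, the 8 genes had 49 (Parp10) to 543 (Zc3hav1) counts per mouse, and SEs were largest for Parp14. Log2 CPM used a prior count of 2. Correlations were tested by permutation within groups (Python 3.11.15, scipy 1.17.1).

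Members and lists were chosen with earlier results of these data known. The genes named were the 8 members, the called genes of each list (at most 3 per list and comparison) and the 3 nearest in pattern per called member. Parp1, Ifnar1, Jak1 and the gamma-activated site were added after values were seen. Alternatives were DESeq2 1.42.0, edgeR's exactTest, no filter, a mean CPM of at least 1, library size alone, RLE factors, a fit to the compared groups, a replicate block, choroid plexus or microglia markers as covariates, GC and length trends removed, and each mouse left out. Whether same-numbered mice deviate together was checked: their correlations ran from -0.40 to 0.15. The labels do not state pairs, so the main fit had no block. The counts of no mice within a group agreed within sampling noise. One item of a pathway list is not reported here.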

Additional observations from a re-analysis of the deposited data

Results flagged for a closer look

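In 32 sets of 5 mice (8 genes in 4 groups), 2 held a mouse set apart from the other 4 by more than Dixon's critical value of 0.71, and chance alone flags about 1 in 20 such sets. KO Tg-SwDI replicate 8 was low for Parp14, at 5.12 CPM against 12.5 CPM for the next lowest mouse (gap over range 0.77). KO Tg-SwDI replicate 3 was high for Parp3, at 10.3 CPM against 7.90 CPM for the next highest (gap over range 0.81). Without replicate 3, the FDR of Parp3 in KO against WT Tg-SwDI mice was 0.175 (log2 0.31, against 0.41 with all mice) by edgeR's quasi-likelihood test, and its rise with the transgene in KO mice kept its call (log2 1.22).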

How the results depend on the processing

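For KO against WT Tg-SwDI mice, 2 of the 8 genes were called, and 5 by DESeq2, 3 by exactTest, 4 with choroid plexus markers as a covariate, 1 without a filter, with the compared groups alone or with GC and length trends removed, and 0 with library size alone or microglia markers as a covariate. With 1 mouse left out the count ran from 0 to 6 (6 without KO Tg-SwDI replicate 8). The other lists in this section are those of PARP family, ADP-ribose removal, Deltex, Zc3hav1, pathway and interferon-stimulated genes. Cell type markers are not counted in them. In the other lists 8 genes were called in this comparison. They had 13 calls by exactTest, 5 without a filter, 4 with library size alone or the microglia covariate, and 1 with the compared groups alone. With 1 mouse left out they had 2 to 14 (2 without WT Tg-SwDI replicate 5 or 7, 14 without KO Tg-SwDI replicate 8). The 7 calls with the transgene in KO mice became 0 with the microglia covariate and stayed 7 to 7 with 1 mouse left out. The other lists had 21 calls there, 10 with the choroid plexus and 1 with the microglia covariate, and 19 to 21 with 1 mouse left out. In WT mice the 1 call became 0 with the microglia covariate and ran from 0 to 2 with 1 mouse left out, and the other lists had 0 calls, 2 with the compared groups alone and 0 to 1 with 1 mouse left out. For the interaction the 8 genes had 0 calls, 3 by DESeq2, 1 without a filter or with a mean CPM of at least 1, and 0 to 3 with 1 mouse left out. The other lists had 1 call there (7 by DESeq2, 2 with a mean CPM of at least 1, 3 with the microglia covariate, and 0 with library size alone, the choroid plexus covariate or GC and length trends removed), and 0 to 8 with 1 mouse left out. For KO against WT Non-Tg mice, 0 of the 8 genes and 0 genes of the other lists were called under every alternative. Of 28 gene pairs 13 passed, and 8 (without WT Non-Tg replicate 6) to 14 with 1 mouse left out. The cause of these changes was not tested.

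Of 1224 values of single genes under an alternative, 1125 kept their direction and side of the threshold and 27 changed sign, 16 of them for Parp11, whose log2 fold changes lay near 0, and 11 others. The values that changed sign are given next. With the microglia covariate the log2 fold change with the transgene in KO mice was -1.41 for Parp9, -0.67 for Parp14 and -0.38 for Zc3hav1. In WT mice it was -1.25 for Parp9, -0.17 for Parp10, 0.0547 for Parp11, -0.99 for Parp14, -0.29 for Dtx3l and -0.59 for Zc3hav1. Under this covariate Parp9 was at -0.17 for KO against WT Tg-SwDI mice and at -0.17 for the interaction. Zc3hav1 in Non-Tg mice was at 0.0026 with the choroid plexus covariate. Parp11 was at -0.01 with library size alone for KO against WT Tg-SwDI mice (-0.0136) and for the transgene in KO mice (-0.0075), and at 0.0008 with the choroid plexus covariate in Non-Tg mice. With 1 mouse left out, Parp11 ran from -0.0106 to 0.0721 for KO against WT Tg-SwDI mice, from -0.0439 to 0.0239 for KO against WT Non-Tg mice, from -0.0067 to 0.0760 with the transgene in KO mice, and from -0.0482 to 0.0247 with it in WT mice.

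With the replicate number as a block, 0 of the 8 genes were called for KO against WT Tg-SwDI mice (Parp10 0.49, FDR = 0.318, and Zc3hav1 0.40, FDR = 0.347, by edgeR), 7 and 1 for the transgene in KO and WT mice, and 0 in Non-Tg mice and for the interaction. The other lists had 0 calls for KO against WT Tg-SwDI mice and 0 for the interaction under the block. Over all genes the block moved the calls for KO against WT Tg-SwDI mice from 320 to 8. Parp11 in Non-Tg mice was at 0.0214 under the block. Correlations of the deviations of same-numbered mice ran from -0.40 to 0.15. With few mice sharing a number in each comparison, this cannot settle whether they share a litter or batch, which the labels do not state.

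Over all genes, 320 were called for KO against WT Tg-SwDI mice, and 733 by DESeq2, 565 by exactTest, 58 with the compared groups alone, 147 with GC and length trends removed, 559 with the choroid plexus and 1399 with the microglia covariate. Counts were lowest for Parp10, at 49 to 117 per mouse.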
